A study of Mus musculus with 18 samples.

Results

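The genes described here carry or read out bone morphogenetic protein (BMP) signalling and number 10 of the 55414 in the deposited table. They are the ligand genes Bmp2, Bmp4, Bmp7 and Bmp8b, the receptor gene Bmpr1a, the inhibitory Smad genes Smad6 and Smad7, and the target genes Id1, Id2 and Id3. They were chosen by name for their place in the pathway, with earlier results of these data known. All 10 passed the main filter on low counts in each main fit.

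RNA was sequenced from small intestinal organoids of C57BL/6J wild-type mice, in 6 groups of 3 biological replicates, all harvested on day 6. MG_Control organoids grew from crypts in Matrigel, a basement membrane extract, under ENR medium, which holds EGF, the BMP antagonist Noggin and R-spondin 1. COL_Control organoids grew from crypts in collagen type I under ENRW medium. MG_5FU and COL_5FU were the same 2 cultures with 40 µM 5-fluorouracil (5-FU), a pyrimidine analog that disturbs thymidylate synthesis and RNA, from day 4. COL_cWRNE organoids grew from crypts in collagen type I under 25% cWRNE medium. VIL cultures grew from villi scraped from the intestine next to the pylorus, also in collagen type I under 25% cWRNE medium. The compositions of ENRW and cWRNE are not given in the sources used here, so their Noggin content cannot be stated. Matrix and medium changed together between Matrigel and collagen and cannot be told apart.

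BMP ligands bind type I receptors such as Bmpr1a together with type II receptors, and the active receptors phosphorylate Smad1, Smad5 and Smad9, which enter the nucleus with Smad4. The Id genes are direct targets whose proteins hold E proteins off DNA, and Smad6 and Smad7 are feedback targets whose proteins block the receptors. In the small intestine BMP activity is held low at the crypt base by secreted antagonists and is high towards the villus tip, where it goes with differentiation.

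Upstream sequence is shown for the ligand gene called in both 5-FU comparisons and both matrix comparisons (Bmp8b), the ligand gene at 0 counts in untreated Matrigel organoids (Bmp4), the inhibitory Smad gene with the widest spread (Smad6) and the Id gene higher in collagen with and without 5-FU (Id2). The sequences are RefSeq's for the GRCm38.p6 build, a different build from the deposited table's, and cover up to 250 bases before the annotated start, 5′ to 3′ on the gene's strand. Capitals mark CAGAC or its reverse complement GTCTG, the Smad box, and GGCGCC, a GC-rich motif bound by Smad1 and Smad5. No match of one motif overlapped the other.
Bmp8b, chr4:123104911-123105160, plus strand: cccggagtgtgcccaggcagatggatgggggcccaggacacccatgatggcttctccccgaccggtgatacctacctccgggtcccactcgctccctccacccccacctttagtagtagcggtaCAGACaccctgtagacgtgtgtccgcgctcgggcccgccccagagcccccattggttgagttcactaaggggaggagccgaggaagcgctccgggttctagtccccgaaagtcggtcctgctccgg
Bmp4, chr14:46390670-46390919, minus strand: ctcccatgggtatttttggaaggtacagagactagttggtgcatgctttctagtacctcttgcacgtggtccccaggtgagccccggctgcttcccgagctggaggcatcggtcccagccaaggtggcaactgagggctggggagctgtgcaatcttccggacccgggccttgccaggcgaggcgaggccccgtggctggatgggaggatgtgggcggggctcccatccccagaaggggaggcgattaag
Smad6, chr9:64022060-64022309, minus strand: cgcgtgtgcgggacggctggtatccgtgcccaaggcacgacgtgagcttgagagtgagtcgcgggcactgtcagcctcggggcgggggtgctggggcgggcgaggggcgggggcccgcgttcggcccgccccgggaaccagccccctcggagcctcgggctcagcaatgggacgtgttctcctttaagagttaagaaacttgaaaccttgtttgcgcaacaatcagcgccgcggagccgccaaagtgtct
Id2, chr12:25096254-25096342, minus strand: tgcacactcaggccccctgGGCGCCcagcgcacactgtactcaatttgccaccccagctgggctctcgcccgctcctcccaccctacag
RefSeq promoter entries were found for 6 of the 10 genes, the others being Bmp2, Bmp7, Smad7 and Id1. For Bmp8b alone, the bases after the annotated start were not found in a GENCODE transcript of the gene. The Bmp8b window is thus placed less surely. CAGAC or GTCTG was found once in the Bmp8b window and 2 times in that of Id3, and GGCGCC once each in those of Id2 and Bmpr1a. Over 32817 promoter windows of the same length, 42.2% held CAGAC or GTCTG and 9.59% held GGCGCC, so the 2 of 6 windows with each motif are a description and no more. The Id3 window lay wholly inside an annotated exon of a longer transcript and is not printed. Of the Id2 window, the 89 bases outside such exons are shown.

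Libraries held 22.3 to 34.5 M estimated counts. Each level in CPM is a count per M of the library's TMM-scaled total, and levels of different genes are compared only in transcripts per M (TPM), which take gene length into account. All 9 epithelial markers were at 1 TPM or more in every library. The 14 mesenchymal markers summed to 0.615 to 7.48 TPM in the 15 crypt-derived libraries and to 24, 319 and 338 TPM in VIL replicates 1, 2 and 3. The 9 immune markers summed to 75.7, 224 and 441 TPM in VIL, 60.6 to 74.5 TPM in COL_cWRNE, where Cd68 alone held 57.3 to 70.9 TPM, and 1.53 to 40.6 TPM elsewhere. Counts of Y-linked genes were 3323 to 5577 in replicate 2 of every group, 738 in COL_Control replicate 3 and 0 or 1 in the other libraries, so Y-linked counts went with replicate 2, and COL_Control replicate 3, which also held Xist at 14 TPM, stood apart. Results that lost a call without it are given with the value it takes then. P-values measure the spread between these replicates. In bulk RNA, fewer cells of a type and less RNA per cell cannot be told apart.

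A gene was called when its adjusted p in edgeR's quasi-likelihood test, adjusted by Benjamini-Hochberg over all genes tested, was under 0.05. With 5-FU in Matrigel, 3 of the 10 genes were called higher and 2 lower, against 19.2% and 11.7% of all genes tested. With 5-FU in collagen, 2 were called higher and 2 lower, against 18.6% and 16.7%. These shares are near the background, so the counts alone say nothing particular about the 10 genes. For the difference between both 5-FU effects (collagen minus Matrigel), none was called higher and 3 lower, against 1.88% and 6.3%.

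Between collagen and Matrigel without 5-FU, 4 of the 10 genes were called higher in collagen and 1 lower, against 15.8% and 15.4% of all genes. With 5-FU in both matrices, 3 were called higher and 1 lower, against 17% and 18.6%. For COL_cWRNE against MG_Control, 4 were called higher and 1 lower, against 20.1% and 13.1%. For VIL against MG_Control, 8 were called higher and none lower, against 27% and 19.7%. For VIL against COL_cWRNE, 4 were called higher and none lower, against 5.68% and 1.96%. For COL_cWRNE against COL_Control, which differ in medium, 2 were called higher and none lower, against 13.1% and 4.85%. Comparisons that share a group are not independent of one another: the same MG_Control libraries stand in 5 of the 9.

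Scaling by library totals alone moved the share of all calls that were higher from 62.2% to 44.6% for 5-FU in Matrigel, from 52.8% to 41.7% for 5-FU in collagen and from 23% to 33% for the difference between them (33.7% with RLE factors). It moved that share from 47.8% to 60.4% for collagen against Matrigel with 5-FU and from 73% to 45.2% for COL_cWRNE against COL_Control. The median log2 change of all genes moved with it from 0.06 to -0.09 for 5-FU in Matrigel, from 0 to 0.12 for collagen against Matrigel with 5-FU and from 0 to -0.16 for COL_cWRNE against COL_Control. The median over the 10 genes with 5-FU was -0.04 in Matrigel cultures and -0.25 in collagen cultures. It was 0.57 for collagen against Matrigel and 0.71 for VIL against COL_cWRNE. The medians over all genes tested were, in the same order, 0.06, -0.03, 0.04 and -0.03. These medians were the same with Bmp4 set to its fold against 3 allowed counts where MG_Control held no counts.

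**Figure D1:**
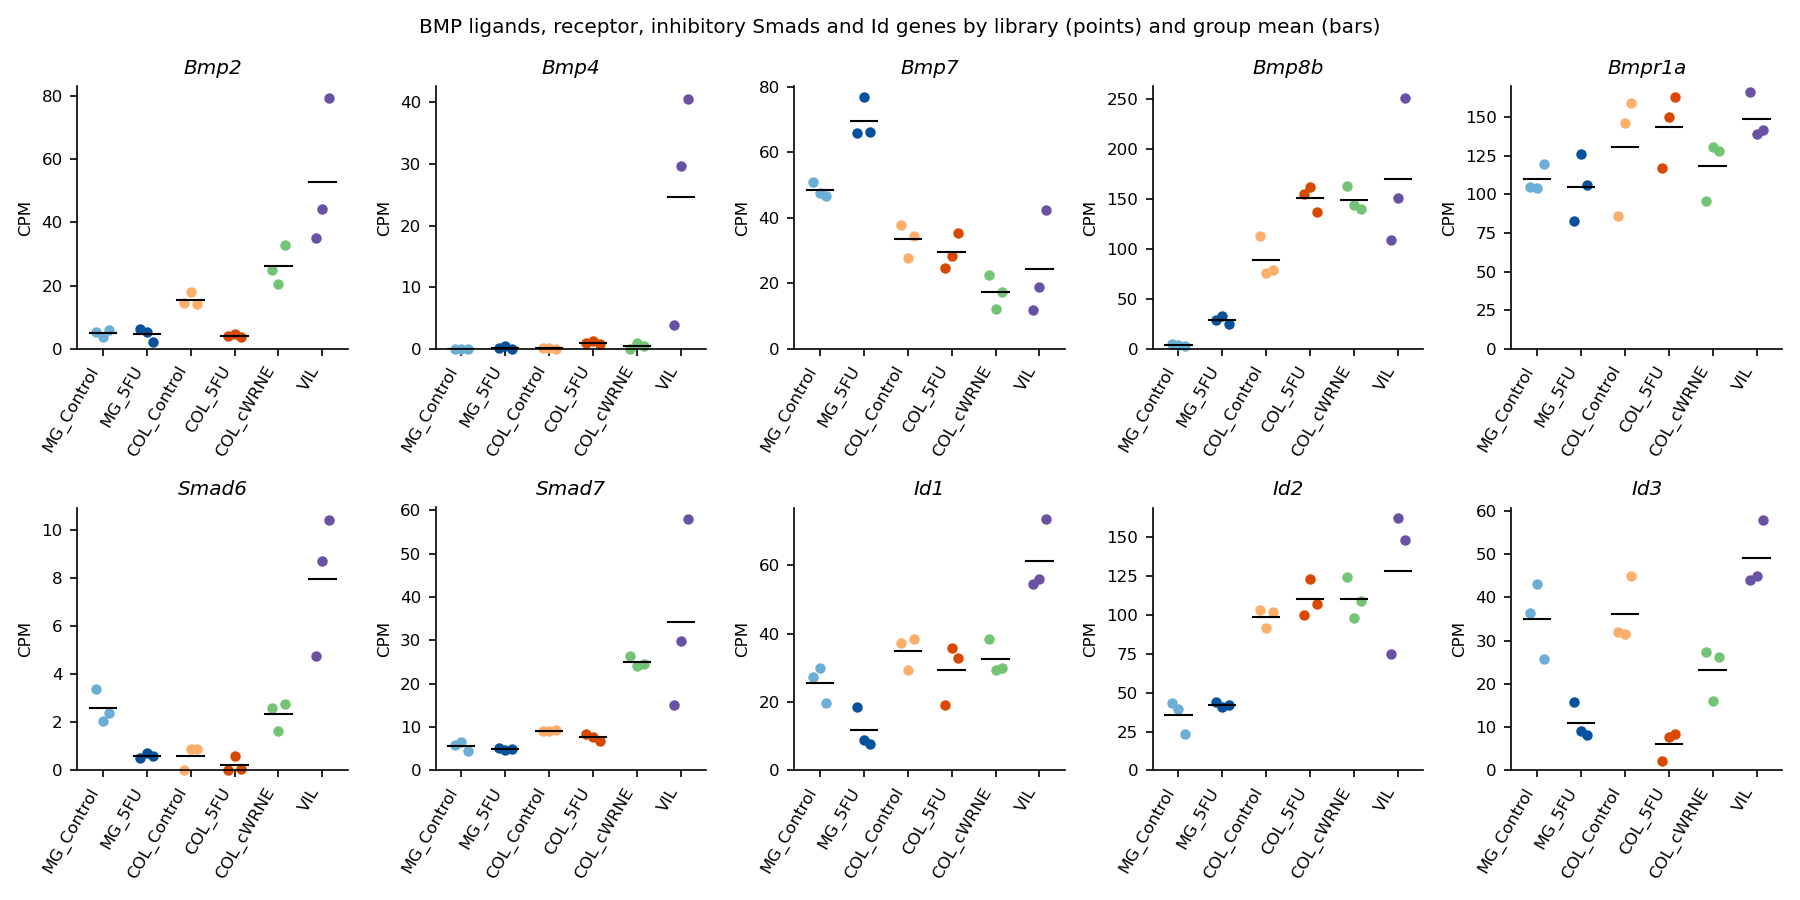
Level of each of the 10 genes in CPM (vertical axis, linear, from 0) in every library (points) of the 6 groups (horizontal axis), with the group mean as a bar. Bmp8b goes from a mean of 4 CPM in MG_Control to 170 CPM in VIL, while Bmpr1a stays between 105 and 149 CPM.

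Bmp8b, which encodes a ligand best known from germ cells and brown fat, rose with 5-FU in both matrices and was higher in collagen than in Matrigel. In Matrigel it stood at 4.98, 4 and 3.01 CPM without 5-FU and at 29.1, 33.4 and 25 CPM with it. In collagen it stood at 113, 76.3 and 78.8 CPM without 5-FU and at 155, 162 and 137 CPM with it. Every collagen library lay above every Matrigel library, and within each matrix the treated libraries lay above the untreated ones. The 5-FU effect was 7.64-fold in Matrigel (log2 fold change 2.93 ± 0.19 SE, n = 3 per group, adjusted p = 1.88e-07, edgeR) and 1.65-fold in collagen (0.73 ± 0.17, adjusted p = 0.00398). The effect in collagen was smaller by -2.21 ± 0.25 on the log2 scale (adjusted p = 0.000187), and this difference was called in all 20 alternative analyses. Collagen stood 22.4-fold above Matrigel without 5-FU (4.49 ± 0.2, adjusted p = 2.18e-08) and 4.86-fold with it (2.28 ± 0.17, adjusted p = 3.49e-07).

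In cWRNE medium Bmp8b reached 163, 144 and 140 CPM, and in the villus-derived cultures 109, 151 and 251 CPM. Both groups overlapped each other and COL_5FU, so the 3 highest groups cannot be ordered. VIL differed from COL_cWRNE by 0.2 ± 0.27 (adjusted p = 0.726). COL_cWRNE lay above COL_Control without overlap by 0.73 ± 0.24 (adjusted p = 0.0459, edgeR), a call kept in only 4 of 14 alternatives. Among the losses was the replicate number as a block (0.74, adjusted p = 0.0603). Leaving out any one library other than COL_Control replicate 1 also ended it (adjusted p = 0.0716 to 0.165, the latter without COL_Control replicate 3).

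Reads of Bmp8b can be shared with other genes. Bmp8a, a near-identical neighbour, had group means of 0.612 CPM in MG_Control, 3.05 in MG_5FU, 1.9 in COL_Control and 13.4 in COL_5FU, so the split between both genes is uncertain. Ppie overlaps the end of Bmp8b on the opposite strand in the GENCODE annotation of GRCm38, and strand use in the counting is not given in the sources used here. Ppie had group means of 67.2 to 107 CPM, with a change of 0.34 ± 0.11 (adjusted p = 0.0243) with 5-FU in collagen and 0.04 ± 0.11 (adjusted p = 0.82) between collagen and Matrigel. Its part in the Bmp8b values was not tested.

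Bmp2, a ligand made by differentiated epithelium in the gut, was higher in collagen than in Matrigel and fell with 5-FU in collagen. In collagen it stood at 14.4, 18.1 and 14.1 CPM without 5-FU and at 4.17, 4.65 and 3.71 CPM with it. In Matrigel it stood at 5.45, 3.86 and 5.86 CPM without 5-FU and at 6.3, 5.37 and 2.26 CPM with it. The untreated collagen libraries lay above the other 9 of the 2 by 2 design, which overlapped one another. The fall in collagen was 3.8-fold (-1.93 ± 0.31, adjusted p = 0.000391, edgeR), and the change in Matrigel was -0.07 ± 0.31 (adjusted p = 0.9). The 5-FU effects differed by -1.86 ± 0.44 (adjusted p = 0.0188), a call lost without MG_Control replicate 2 (-1.69, adjusted p = 0.0545), MG_5FU replicate 1 (-1.58, 0.0508) or MG_5FU replicate 2 (-1.73, 0.0509). That call was also lost with all 18 libraries in the fit (-1.78, adjusted p = 0.0566). Collagen exceeded Matrigel 3.05-fold without 5-FU (1.61 ± 0.31, adjusted p = 0.00148) and differed from it by -0.25 ± 0.31 with 5-FU (adjusted p = 0.585).

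The highest Bmp2 levels came with cWRNE medium, at 25, 20.5 and 32.8 CPM in crypt-derived and 35, 44.4 and 79.3 CPM in villus-derived cultures. Those groups did not overlap, yet the difference of 1.02 ± 0.31 was not called (adjusted p = 0.0802). It was called in 5 of 16 alternatives, among them the replicate block (0.99, adjusted p = 0.043) and the fit without VIL replicate 1 (1.29, adjusted p = 0.0223). Against MG_Control, Bmp2 was higher 4.98-fold in COL_cWRNE (2.32 ± 0.33, adjusted p = 0.000684) and 10.1-fold in VIL (3.34 ± 0.34, adjusted p = 0.000111), and both calls held in every alternative run.

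Bmp7, a ligand gene of epithelia, ran the other way between the matrices. It stood at 51, 47.5 and 46.8 CPM in MG_Control and at 37.8, 27.9 and 34.6 CPM in COL_Control. With 5-FU it stood at 65.9, 77 and 66.1 CPM in Matrigel and at 24.6, 28.5 and 35.4 CPM in collagen. All Matrigel libraries lay above all collagen libraries of this design. Bmp7 rose 1.49-fold with 5-FU in Matrigel (0.58 ± 0.14, adjusted p = 0.00708, edgeR) and showed -0.21 ± 0.14 in collagen (adjusted p = 0.291). Collagen was lower than Matrigel by -0.54 ± 0.14 without 5-FU (adjusted p = 0.0112; without COL_Control replicate 2, -0.43 and 0.0541) and by -1.33 ± 0.15 with it (adjusted p = 1.01e-05). On the deposited TPM, the rise in Matrigel was 0.21 (adjusted p = 0.363, limma) and the untreated matrix difference -0.34 (adjusted p = 0.155). Neither call held on that scale, or with all 18 libraries in the fit (0.52, adjusted p = 0.275, and -0.54, adjusted p = 0.264, edgeR).

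The 5-FU effects on Bmp7 differed by -0.79 ± 0.2 (adjusted p = 0.0296), a call that 10 of 20 alternatives kept. Leaving out any one of 8 of the 12 libraries ended it, with adjusted p from 0.0543 without MG_Control replicate 3 to 0.0798 without COL_5FU replicate 2, and 0.0722 without COL_Control replicate 3. The libraries whose removal kept it were MG_Control replicate 1, MG_5FU replicate 1, COL_Control replicate 2 and COL_5FU replicate 3. All 18 libraries in the fit (-0.7, adjusted p = 0.485, edgeR) and the deposited TPM (-0.58, adjusted p = 0.165, limma) also ended this call. In cWRNE medium Bmp7 stood at 22.5, 12.1 and 17.3 CPM, and in VIL at 11.8, 18.9 and 42.4 CPM, with overlap. COL_cWRNE was lower than MG_Control by -1.53 ± 0.41 (adjusted p = 0.0182), a call lost without MG_Control replicates 1 or 2 or COL_cWRNE replicates 2 or 3 (adjusted p = 0.0521 to 0.0802).

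Bmp4, in the intestine chiefly a product of the mesenchyme, was near the detection limit in crypt-derived organoids and present in villus-derived cultures. The 3 MG_Control libraries held 0 counts, which allows up to 3 counts over the group, and COL_Control held 3, 5 and 0. With 5-FU the counts were 4, 12 and 0 in Matrigel and 26, 37 and 28 in collagen. COL_cWRNE held 1, 30 and 13 counts and VIL held 100, 958 and 899. MG_5FU replicate 3 was at 0 like the controls, whereas the COL_5FU libraries lay above those of COL_Control. In the 5-FU and matrix fit, Bmp4 reached 10 counts only in COL_5FU and in MG_5FU replicate 2. It thus passed the low-count filter there through the group where it was highest, which limits its calls in that fit. In the fit with VIL it likewise passed through VIL.

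Bmp4 was called higher with 5-FU in Matrigel (adjusted p = 0.0341, edgeR), although the groups overlapped. Its 16 counts in MG_5FU, set against the 3 counts allowed in MG_Control, gave 6.11-fold. That fold leaves out the spread between replicates and is no lower bound on the effect. Bmp4 lost that call without any one MG_Control library or MG_5FU replicate 2 (adjusted p = 0.0742 to 0.138) and with all 18 libraries (0.103). In collagen it rose 10.8-fold (3.43 ± 1.11, adjusted p = 0.0318), a call lost on leaving out any one of the 6 libraries (adjusted p = 0.0547 to 0.0969, the latter without COL_Control replicate 3). The 5-FU effects on Bmp4 were not shown to differ (adjusted p = 0.546). Collagen against Matrigel with 5-FU gave 2.23 ± 1.03 (adjusted p = 0.12), and 2.8 with the replicate block (adjusted p = 0.0481). COL_cWRNE against MG_Control was not called for Bmp4 (adjusted p = 0.0554, edgeR, 14.3-fold when set against 3 allowed counts). It was called in 5 of 13 alternatives, among them the replicate block (adjusted p = 0.00636). Over the alternatives the log2 estimate ran from 0.48 to 7.29.

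Bmp4 in villus-derived cultures stood at 3.88, 29.6 and 40.6 CPM, against 0.0349, 0.941 and 0.438 CPM in COL_cWRNE. All 3 villus libraries lay above every crypt-derived library. VIL exceeded COL_cWRNE by 5.69 ± 1.13 on the log2 scale (adjusted p = 0.0258, edgeR). It also exceeded MG_Control (adjusted p = 0.0016, edgeR), 717-fold when set against 3 allowed counts. The first call was lost without any one COL_cWRNE library or VIL replicate 2 (5.2 to 6.68, adjusted p = 0.0643 to 0.115). The same libraries held mesenchymal transcripts: all 11 tested markers were called higher in VIL than in COL_cWRNE, and the marker sum was lowest in replicate 1 and highest in replicate 3. Within VIL, 9 of the 10 genes were lowest in replicate 1, all but Bmpr1a. In COL_cWRNE, 10 of the 14 markers were at 0 in all 3 libraries. With replicate 1 as the only VIL library, the Bmp4 difference was 3.05, a value of 1 library given with no test. The part of mesenchymal cells in these values was not tested.

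**Figure D2:**
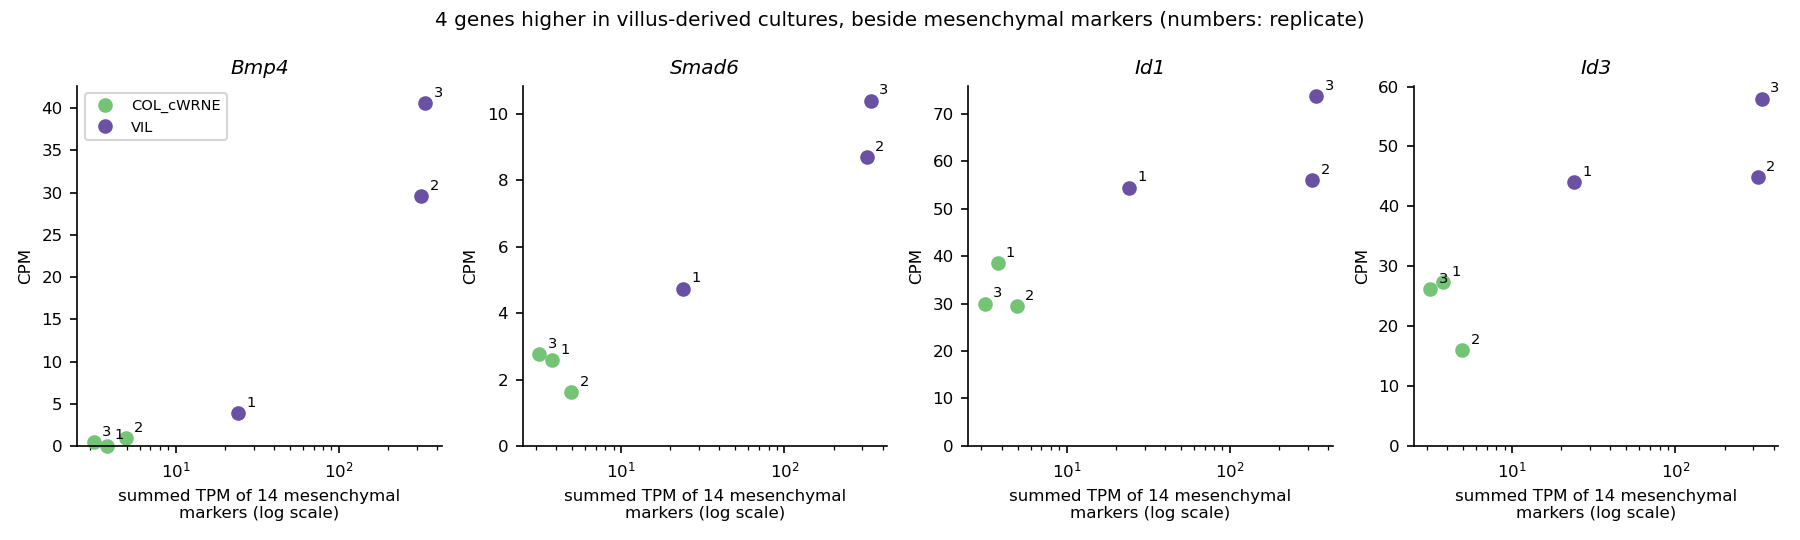
CPM of Bmp4, Smad6, Id1 and Id3 (vertical axes, linear, from 0) against the summed TPM of 14 mesenchymal markers (horizontal axis, log scale) in the 3 COL_cWRNE and 3 VIL libraries, with replicate numbers. All 4 genes and the marker sum are lowest in VIL replicate 1 and highest in replicate 3 among the VIL libraries, with Bmp4 at 3.88, 29.6 and 40.6 CPM and Id1 at 54.4, 56 and 73.6 CPM in replicates 1, 2 and 3.

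On the TPM scale the make-up of ligand transcripts differed between groups. The 14 BMP ligand genes listed summed to 32.9 ± 5.44 TPM in MG_Control (SD, n = 3), 46.9 ± 6.93 in MG_5FU, 72.8 ± 10.9 in COL_Control, 99.8 ± 4.72 in COL_5FU, 93.9 ± 3 in COL_cWRNE and 147 ± 85 in VIL. Bmp7 made up 56.2 ± 7.49% of that sum in MG_Control and 19.7 ± 1.38% in COL_Control, while Bmp8b made up 5.68 ± 1.69% and 62.9 ± 2.69%. Bmp3, a ligand gene whose product is known to oppose other BMPs, took 29.7 ± 8.35% in MG_Control and 4.33 ± 0.676% in COL_Control. In VIL the shares were 57.9 ± 7.17% for Bmp8b, 17.4 ± 2.71% for Bmp2 and 12.5 ± 7.79% for Bmp4. These shares are sums of the authors' TPM, given with no test.

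**Figure D3:**
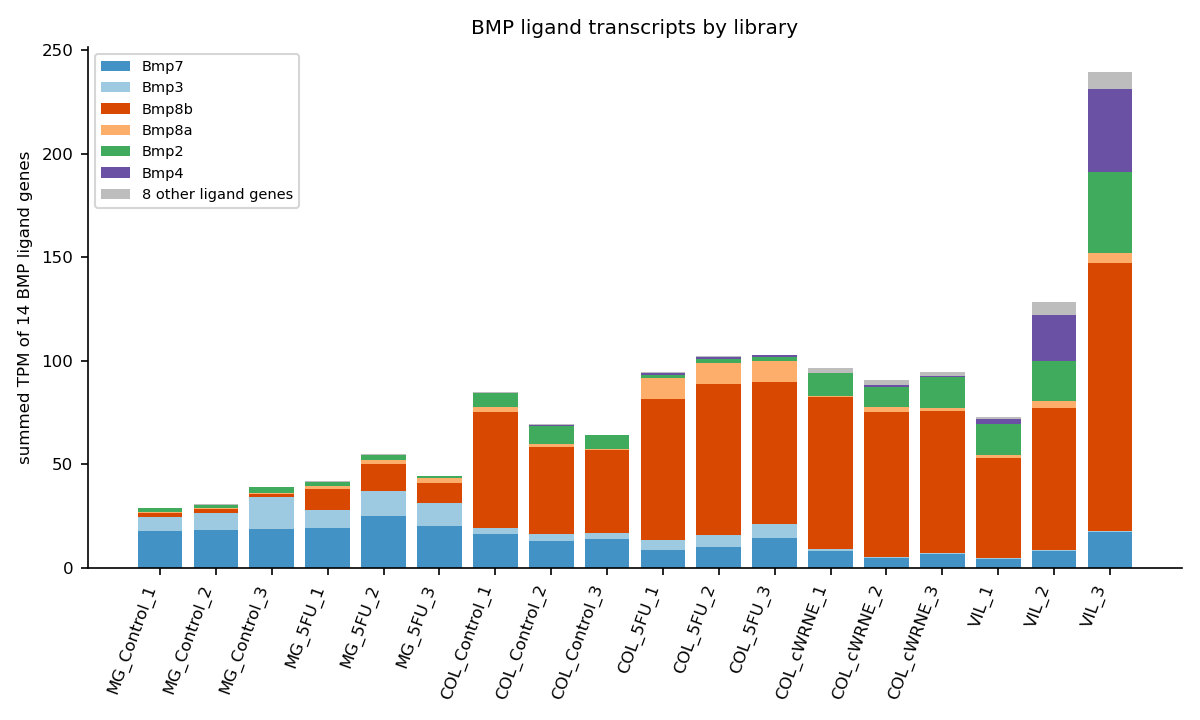
Summed TPM of 14 BMP ligand genes (vertical axis, linear) in each of the 18 libraries (horizontal axis), divided by gene. Bmp7 and Bmp3 fill most of the MG_Control bars, Bmp8b fills 53.5% to 77.5% of every collagen bar, and Bmp4 is visible mainly in VIL replicates 2 and 3.

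Of the 10 other ligand genes listed, 3 reached the test in the 5-FU and matrix fit. Bmp3 was lower in collagen (-1.99 ± 0.23, adjusted p = 2.7e-05, edgeR), at 11 CPM against 43.2 CPM in MG_Control. Bmp8a rose with 5-FU in collagen (2.79 ± 0.44, adjusted p = 0.000279). Bmp6 was higher in VIL than in MG_Control (5.13 ± 1.05, adjusted p = 0.00382), at 7.24 against 0.199 CPM. Crypt-derived COL_cWRNE held Bmp6 at 5 CPM.

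Bmpr1a, the type I receptor for Bmp2 and Bmp4, varied little. Its group means ran from 105 CPM in MG_5FU to 149 CPM in VIL, a 1.42-fold range, and each group overlapped its neighbours in that order. The libraries of MG_Control stood at 105, 104 and 120 CPM and those of VIL at 166, 139 and 142 CPM. Bmpr1a was called in 1 of 9 comparisons, VIL against MG_Control (0.4 ± 0.15, adjusted p = 0.0497, edgeR). That call was lost in 9 of 16 alternatives, among them library totals (0.3, adjusted p = 0.13) and the replicate block (0.41, 0.0713). The fits without MG_Control replicate 1 or 2 or VIL replicate 1 or 2 were also among them (adjusted p = 0.0672 to 0.115). The 5-FU changes were -0.01 ± 0.21 in Matrigel and 0.1 ± 0.21 in collagen.

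Of the 10 other receptor and co-receptor genes listed, 7 were tested. For 5-FU in Matrigel none of them was called higher and 2 lower (all genes 19.2% and 11.7%), and for 5-FU in collagen 1 higher and 2 lower (18.6% and 16.7%). Bmpr2, the main type II receptor gene, was higher in VIL than in MG_Control (1.22 ± 0.17, adjusted p = 0.000613), at 19.8 against 8.28 CPM. Crypt-derived COL_cWRNE stood near VIL for Bmpr2, at 18.5 CPM. Rgmb, a co-receptor gene, fell with 5-FU in collagen (-0.91 ± 0.13, adjusted p = 0.000169). Acvrl1, a receptor gene of endothelium, was higher in VIL than in MG_Control (5.96 ± 0.7, adjusted p = 0.000234), with endothelial marker sums of 0.891, 1.69 and 12.9 TPM in VIL and at most 0.304 TPM in MG_Control beside it. Among the signal-carrying Smads, Smad1 showed -0.04 ± 0.11 with 5-FU in Matrigel and -0.01 ± 0.11 in collagen. Smad5 was higher in collagen than in Matrigel without 5-FU (0.7 ± 0.19, adjusted p = 0.0117), and Smad4 fell with 5-FU in Matrigel (-0.37 ± 0.12, adjusted p = 0.0336), a call lost without MG_Control replicate 2 or 3 or MG_5FU replicate 1 or 3 (adjusted p = 0.0657 to 0.137).

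Smad6, whose protein competes with Smad4 and blocks BMP receptors, was a low-count gene. MG_Control libraries stood at 3.37, 2.07 and 2.37 CPM and MG_5FU libraries at 0.519, 0.718 and 0.6 CPM. COL_Control libraries stood at 0.0318, 0.88 and 0.869 CPM and COL_5FU libraries at 0, 0.603 and 0.0579 CPM. MG_Control lay above the other 9 libraries of this design without overlap. The changes were -2.02 ± 0.96 for 5-FU in Matrigel (adjusted p = 0.131, edgeR) and -2.13 ± 0.96 for collagen against Matrigel (adjusted p = 0.111), neither called. With only MG_Control and MG_5FU in the fit, the former was -2.1 with adjusted p = 0.00434. On the deposited TPM both were called (-0.93, adjusted p = 0.00491, and -0.87, adjusted p = 0.00836, limma). Without COL_5FU replicate 2, the 5-FU change in collagen went from -1.46 ± 1.03 (adjusted p = 0.3) to -4.06 (adjusted p = 0.0273), and that between collagen and Matrigel with 5-FU from -1.57 ± 1.04 (adjusted p = 0.273) to -4.17 (adjusted p = 0.0239).

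In cWRNE medium Smad6 stood at 2.58, 1.63 and 2.76 CPM, and in VIL at 4.74, 8.7 and 10.4 CPM, above all other libraries. VIL exceeded COL_cWRNE 3.42-fold (1.78 ± 0.4, adjusted p = 0.0274) and MG_Control 2.96-fold (1.57 ± 0.39, adjusted p = 0.00986). The first call was lost without any one COL_cWRNE library, VIL replicate 2 or VIL replicate 3 (1.54 to 1.95, adjusted p = 0.0515 to 0.097). It was also lost with the replicate block (adjusted p = 0.0559), all 18 libraries (0.163) or only the groups compared (0.0556). The second call was lost with all 18 libraries (adjusted p = 0.103). With replicate 1 as the only VIL library the differences were 1.05 and 0.85, with no test. The part of mesenchymal cells in the Smad6 values was not tested.

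Smad7, whose protein blocks both BMP and TGF-beta receptors, was higher in collagen under cWRNE medium than under ENRW medium. Smad7 was also higher in COL_Control than in MG_Control, a step in which matrix and medium changed together. It stood at 5.78, 6.65 and 4.47 CPM in MG_Control, at 9.11, 9.04 and 9.27 CPM in COL_Control and at 26.5, 24 and 24.5 CPM in COL_cWRNE. Those 3 groups did not overlap. COL_cWRNE exceeded COL_Control 2.74-fold (1.45 ± 0.32, adjusted p = 0.00462, edgeR), a call kept in all 14 alternatives, and MG_Control 4.3-fold (2.1 ± 0.41, adjusted p = 0.00382). COL_Control exceeded MG_Control 1.62-fold (0.69 ± 0.2, adjusted p = 0.0156), a call lost without MG_Control replicate 3 (0.56, adjusted p = 0.061). It was also lost with all 18 libraries (adjusted p = 0.134), on testing every gene with 1 count (0.073) and with only the groups compared (0.0501).

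With 5-FU, Smad7 stood at 5.26, 4.72 and 5.03 CPM in Matrigel and at 8.46, 7.74 and 6.78 CPM in collagen. The 5-FU changes were -0.11 ± 0.2 in Matrigel (adjusted p = 0.713) and -0.29 ± 0.19 in collagen (adjusted p = 0.277), although the collagen libraries did not overlap. In VIL it stood at 15.2, 29.8 and 58 CPM, on both sides of COL_cWRNE (0.46 ± 0.39, adjusted p = 0.545) and above MG_Control (2.56 ± 0.41, adjusted p = 0.00115).

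**Figure D4:**
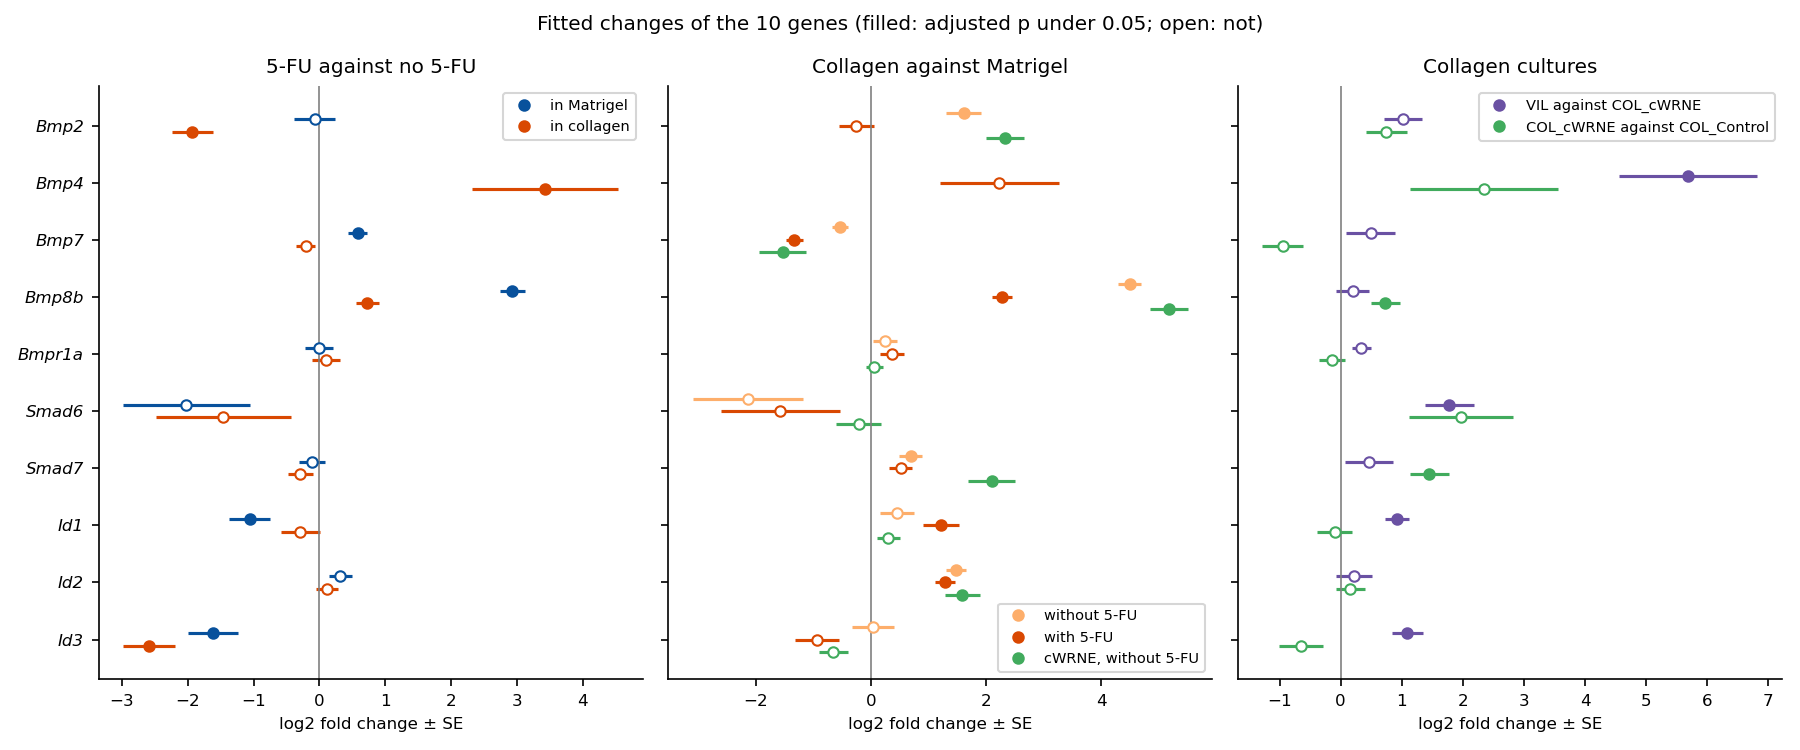
Fitted log2 fold change ± SE (horizontal axes) of the 10 genes (vertical axis) for 5-FU in either matrix (left), collagen against Matrigel (middle) and VIL against COL_cWRNE or COL_cWRNE against COL_Control (right). Filled points were called and open points were not. Bmp4 is left out where MG_Control held 0 counts. Id3 lies below 0 for 5-FU in both matrices (-1.61 and -2.59), and Id2 lies between 1.29 and 1.59 in the middle panel.

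Id3, a direct target of BMP-activated Smads, was lower after 5-FU in both matrices. In Matrigel it went from 36.3, 43.2 and 25.8 CPM to 15.8, 9.07 and 8.3 CPM. In collagen it went from 32.1, 31.5 and 45 CPM to 2.29, 7.67 and 8.34 CPM. No treated library reached an untreated one in either matrix. The fall was 3.05-fold in Matrigel (-1.61 ± 0.38, adjusted p = 0.00517, edgeR) and 6.03-fold in collagen (-2.59 ± 0.39, adjusted p = 0.000221), and both calls held in all 15 alternatives. The effects were not shown to differ (-0.98 ± 0.53, adjusted p = 0.307). Untreated collagen and Matrigel differed by 0.04 ± 0.36 (adjusted p = 0.95).

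Id1, a target that reads BMP activity in many cell types, fell with 5-FU in Matrigel. It went from 27.4, 29.9 and 19.6 CPM to 18.5, 8.92 and 7.8 CPM in Matrigel. In collagen it stood at 37.4, 29.4 and 38.3 CPM without 5-FU and at 19, 35.9 and 32.9 CPM with it. The Matrigel groups came close but did not overlap, and those in collagen did overlap. The fall in Matrigel was 2.09-fold (-1.06 ± 0.31, adjusted p = 0.017, edgeR), a call lost without MG_Control replicate 2 (-0.93, 0.0648), MG_5FU replicate 2 (-0.89, 0.0751) or MG_5FU replicate 3 (-0.84, 0.0782). In collagen the change was -0.29 ± 0.3 (adjusted p = 0.484). The effects were not shown to differ (0.78 ± 0.43, adjusted p = 0.321), except without MG_5FU replicate 1 (1.26, adjusted p = 0.049). With 5-FU, Id1 was 2.33-fold higher in collagen than in Matrigel (1.22 ± 0.31, adjusted p = 0.00683), a call kept in all 15 alternatives.

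Id2, a gene that innate lymphoid cells also need, was higher in collagen than in Matrigel with and without 5-FU. It stood at 43.4, 39.6 and 23.1 CPM in MG_Control and at 103, 91.5 and 102 CPM in COL_Control. With 5-FU it stood at 43.8, 40.8 and 42 CPM in Matrigel and at 99.7, 123 and 107 CPM in collagen. The 2 Matrigel groups overlapped, as did the 2 collagen groups, and all collagen libraries lay above all Matrigel libraries. Id2 was 2.79-fold higher in collagen without 5-FU (1.48 ± 0.17, adjusted p = 2.36e-05, edgeR) and 2.44-fold higher with it (1.29 ± 0.17, adjusted p = 5.11e-05). COL_cWRNE lay 3.02-fold above MG_Control (1.59 ± 0.31, adjusted p = 0.00364). The 5-FU changes were 0.32 ± 0.17 in Matrigel (adjusted p = 0.18) and 0.12 ± 0.17 in collagen (adjusted p = 0.606).

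In villus-derived cultures Id1 stood at 54.4, 56 and 73.6 CPM and Id3 at 44.1, 44.9 and 58 CPM. In COL_cWRNE Id1 stood at 38.5, 29.4 and 30 CPM and Id3 at 27.3, 16 and 26.2 CPM. The groups did not overlap for either gene. VIL exceeded COL_cWRNE 1.89-fold for Id1 (0.92 ± 0.2, adjusted p = 0.0257, edgeR) and 2.13-fold for Id3 (1.09 ± 0.25, adjusted p = 0.031). Both calls were lost without any one COL_cWRNE library or VIL replicate 2, and that of Id3 also without VIL replicate 3 (Id1 0.87 to 1.09, adjusted p = 0.0504 to 0.101; Id3 0.9 to 1.27, adjusted p = 0.0506 to 0.0847). The replicate block also ended both calls (adjusted p = 0.0561 for Id1 and 0.0671 for Id3). The Id3 call was lost as well with all 18 libraries (adjusted p = 0.0587) and with only the groups compared (0.0509). With replicate 1 as the only VIL library the differences were 0.76 and 0.95, with no test. Of the immune markers, 5 of 6 tested were also called higher in VIL, and the part of other cell types in these values was not tested. Id2 stood at 74.8, 162 and 148 CPM in VIL and overlapped COL_cWRNE at 124, 98 and 109 CPM (0.22 ± 0.3, adjusted p = 0.719). Against MG_Control, VIL was higher for Id1 (1.22 ± 0.2, adjusted p = 0.00131, edgeR), a call kept in all 16 alternatives. Id3 was not called against MG_Control (0.44 ± 0.25, adjusted p = 0.17), so its difference from COL_cWRNE does not extend to Matrigel organoids. Id4 stood at 0.841 to 1.83 CPM as group means and was called in none of the 9 comparisons at this depth.

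The levels of the 3 Id genes in TPM had different orders over the groups. In MG_Control they were alike, at 51.7 ± 7.15 TPM for Id1 (SD, n = 3), 47.9 ± 10.8 for Id2 and 45.9 ± 9.23 for Id3. In COL_5FU they stood at 62.6 ± 21.7 TPM for Id1, 154 ± 18.9 for Id2 and 8.5 ± 4.86 for Id3. The ranges of the 3 genes did not overlap in COL_5FU, with Id3 at 2.96 to 12.1 TPM and Id2 at 133 to 171 TPM.

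The antagonists and other regulators were listed to show the rest of the pathway. Of the 17 genes of secreted antagonists and modulators, 9 were tested in the 5-FU and matrix fit, with 4 called higher and none lower for 5-FU in Matrigel (all genes 19.2% and 11.7%) and 2 higher and none lower for 5-FU in collagen (18.6% and 16.7%). Their median log2 change was 0.94 and 0.22, beside 0.06 and -0.03 over all genes tested. Bambi, which encodes a decoy receptor, rose with 5-FU in Matrigel (2.59 ± 0.25, adjusted p = 4.27e-06, edgeR), from 4.16 to 24.1 CPM. In collagen Bambi showed 0.06 ± 0.24, and the effects differed by -2.53 ± 0.34 (adjusted p = 0.000493). Fst, the gene of follistatin, was higher in collagen than in Matrigel with 5-FU (4.87 ± 0.71, adjusted p = 0.000118), at 32.8 against 1.03 CPM. Nbl1, a gene of a DAN family antagonist, was higher in VIL than in MG_Control (4.77 ± 0.49, adjusted p = 0.00012). Crypt-derived COL_cWRNE was high as well, with Nbl1 at 61.6 CPM against 7.44 CPM in COL_Control (3.05 ± 0.42, adjusted p = 0.000149, edgeR). Nog had 0 counts in the 4 groups without cWRNE medium and at most 0.0534 CPM as a group mean elsewhere, and Grem1 had 0 counts outside VIL, where it averaged 2.43 ± 2.21 CPM (SD, n = 3).

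Among 10 intracellular regulators, all tested, 2 were called higher and 2 lower for 5-FU in Matrigel, and 3 higher and 2 lower for 5-FU in collagen, shares near those of all genes (19.2% and 11.7%, and 18.6% and 16.7%). Tob1, whose product restrains Smad signalling, rose with 5-FU in Matrigel (1.15 ± 0.1, adjusted p = 3.09e-06), as did Ppm1a, a Smad phosphatase gene (0.53 ± 0.08, adjusted p = 0.000256). Smurf1, a ubiquitin ligase gene that targets Smads, was higher in collagen than in Matrigel with 5-FU (0.93 ± 0.12, adjusted p = 5.49e-05). Of 11 other response genes, 6 were tested in this fit, with 3 called higher and 1 lower for 5-FU in Matrigel (all genes 19.2% and 11.7%) and 2 of each for 5-FU in collagen (18.6% and 16.7%). Atoh8 rose from 2.46 to 6.3 CPM with 5-FU in Matrigel (1.41 ± 0.31, adjusted p = 0.00368) and fell from 1.46 to 0.52 CPM in collagen (-1.51 ± 0.34, adjusted p = 0.00382), with a difference of -2.91 ± 0.46 (adjusted p = 0.00174). Hhex rose with 5-FU in collagen (2.27 ± 0.22, adjusted p = 6.77e-06), and Runx2 was at 13.3 CPM in COL_5FU against 0.121 CPM in MG_5FU (6.67 ± 0.82, adjusted p = 6.81e-05). The genes of the E proteins, the partners of Id proteins, were all 3 tested, and those with a call for 5-FU are named after their values were seen: Tcf3 fell with 5-FU in Matrigel (-0.59 ± 0.09, adjusted p = 0.000319) and Tcf4 rose with 5-FU in collagen (0.71 ± 0.12, adjusted p = 0.000663).

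The genes most like each member over the 18 libraries were found by Pearson's r of log2 CPM among genes of at least 10 CPM on average. The libraries of a group share their treatment, so r mostly describes the 6 group levels and is given with no test. For Bmp8b they were Junb (r = 0.992) and Plat (0.987), for Smad7 Hilpda (0.977) and Mlkl (0.973), for Id2 Col4a1 (0.961) and Rbpms (0.957), and for Id3 Selenbp1 (0.96) and Rnf167 (0.931). For Bmp2 they were Mroh1 (0.948) and Tc2n (0.945), for Id1 Ankrd37 (0.92) and Hpse (0.903), and for Bmp7 Tet3 (0.877) and Anpep (0.875). Bmpr1a, with the narrowest range of group means, had the lowest values, with Lrrc58 at 0.841 and Pskh1 at 0.814.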

How the data were processed

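RNA of 18 organoid cultures was extracted on day 6, amplified by the SMART-Seq method, tagmented (Nextera XT) and read on a NovaSeq X Plus instrument, per the labels' protocols. The authors deposited estimated counts and TPM per gene, per the file headers. The submitters' processing notes name bcl2fastq 2.20, DRAGEN and the mouse build GRCm39 (mm39). The annotation, the counting tool and strand use are not given in the sources used here. Of the nonzero deposited estimated counts, 67.8% were whole within 1e-09, and all were rounded before testing. Symbols were matched for 52081 of 55414 gene IDs.

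Groups came from the sample titles. Counts were tested with edgeR 4.0.16 (TMM scaling, filterByExpr at min.count 10 and min.total.count 15, quasi-likelihood F-test) in R 4.3.3, with Benjamini-Hochberg adjustment over all genes tested and a threshold of 0.05. One fit held the 12 libraries of the 5-FU and matrix design, one the 9 libraries of MG_Control, COL_cWRNE and VIL, and one all 18 libraries for COL_cWRNE against COL_Control. The SE is the log2 fold change divided by the square root of F. Where a group held 0 counts, folds are set against 3 counts over the group. They allow for chance in that group alone and not for the spread between replicates. In tests on simulated data all changed genes that were called had the right sign, but recovery was partial, and lowest for the smaller simulated fold in VIL against COL_cWRNE, so a missing call there says little.

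Alternatives were RLE factors, library totals, DESeq2 1.42.0, testing every gene with 1 count, a filter of 10 CPM or more in 3 libraries, all 18 libraries, only the groups compared, the replicate number as a block, limma 3.58.1 on log2(TPM + 1) for genes with at least 1 TPM in 3 libraries, and leaving out each library. VIL replicate 1 alone was added after seeing the data. Same-numbered libraries deviated together in 6 comparisons, with residual correlations over 9916 genes above 0.1 in all 3 pairs (0.107 to 0.478), so blocked values stand beside results there where they change a call. The members and lists were chosen with earlier results of these data known. All 10 members were named, and of each other pathway list up to 3 genes with the smallest adjusted p in any comparison, together with Bmpr2, Smad1, Smad5, Nog, Grem1, Bambi and Id4. Other genes are named where the text says so or where their reads or levels bear on a member.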

Additional observations from a re-analysis of the deposited data

Results flagged for a closer look

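The 5-FU effect was called different between collagen and Matrigel for 3 of the 10 genes. This was the interaction term of the edgeR fit with 3 libraries in each of 4 groups. All 3 were called lower, against 6.3% of all genes tested, and none higher, against 1.88%. The difference (collagen minus Matrigel, log2 scale) was -1.86 for Bmp2, whose level fell in collagen. It was -0.79 for Bmp7, whose level rose in Matrigel. It was -2.21 for Bmp8b, whose level rose in both matrices and by more in Matrigel, from a lower start. The Bmp8b call was kept in all 20 alternatives, that of Bmp2 in 16 of 20 and that of Bmp7 in 10 of 20. With all 18 libraries in the fit, the calls of Bmp2 (adjusted p = 0.0566) and Bmp7 (0.485) were lost.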

How the results depend on the processing

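Of 40 calls on the 10 genes, 24 were kept in every alternative run for them. With all 18 libraries in the fit, the genes called went from 5 to 3 for 5-FU in Matrigel, from 3 to 1 for the difference between 5-FU effects and from 5 to 3 for collagen against Matrigel without 5-FU. For VIL against COL_cWRNE the 4 calls became 2 with at least 10 CPM in 3 libraries, a filter that left Bmp4 and Smad6 untested. With the replicate block the calls of Smad6, Id1 and Id3 were lost, that of Bmp4 was kept and Bmp2 was newly called. With only the groups compared, the calls of Smad6 and Id3 were lost. VIL replicate 1 alone left an arm of 1 library, assumed to vary like the other groups, so its calls say little and are not counted. For COL_cWRNE against COL_Control the 2 calls became 1 with RLE factors or the replicate block and 5 with only the groups compared. The replicate block gave 7 calls in place of 8 for VIL against MG_Control. Replicate numbers were not taken as pairs in either VIL comparison, where 2 of 3 pairs correlated above 0.1. Y-linked counts went with replicate 2 there too, so blocked values that change a call are given for VIL as well. In the paired comparisons the block changed the calls of Bmp4 and Bmp8b given with the results and no other call on the 10 genes.

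Among called values, Ppm1a turned for collagen against Matrigel with 5-FU, from -0.39 (adjusted p = 0.00229, edgeR) to 0.03 on log2(TPM + 1). The other values that turned were not called. On log2(TPM + 1), Id2 with 5-FU in collagen was -0.02, the Smad7 difference between 5-FU effects 0.12, and Bmp2 for collagen against Matrigel with 5-FU 0.14. By library totals, Id2 for COL_cWRNE against COL_Control was -0.02. With VIL replicate 1 alone, differences from COL_cWRNE were -0.52 for Bmp7, -0.42 for Bmp8b, -0.69 for Smad7 and -0.54 for Id2. The cause was not tested.

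Leaving out 1 library gave 3 to 5 calls for 5-FU in Matrigel, 1 to 3 for the difference between 5-FU effects, 0 to 5 for VIL against COL_cWRNE and 1 to 2 for COL_cWRNE against COL_Control. It moved values across 0 for 5-FU in Matrigel (Bmp2 -0.33 to 0.26, Bmpr1a -0.16 to 0.15, Smad7 -0.24 to 0.03) and in collagen (Bmpr1a -0.12 to 0.28). It did so for the difference between 5-FU effects (Bmpr1a -0.11 to 0.29, Smad6 -2.04 to 1.13, Id2 -0.35 to 0.03), for collagen against Matrigel (Id3 -0.15 to 0.23) and for the same with 5-FU (Bmp2 -0.55 to 0.03). It also did so for VIL against COL_cWRNE (Bmp7 -0.16 to 0.87, Bmp8b -0.18 to 0.48, Smad7 -0.14 to 0.86) and for Smad6 in COL_cWRNE against MG_Control (-0.33 to 0.03). Bmp4 and Smad6 rest on few counts in crypt-derived libraries.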

Other observations

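Lists beside the BMP pathway were counted in the same fits. Of 5 crypt stem cell markers, 4 were called lower and none higher with 5-FU in Matrigel, where 11.7% of all genes were called lower and 19.2% higher. In collagen 3 were called lower and 1 higher, against 16.7% and 18.6% of all genes. Of 7 villus tip enterocyte genes, 4 were called higher and none lower in VIL against COL_cWRNE, against 5.68% and 1.96% of all genes. Their median was 1.6 on the log2 scale beside -0.03 over all genes. The VIL libraries also held mesenchymal marker sums of 24 to 338 TPM and immune marker sums of 75.7 to 441 TPM, whose part in these counts was not tested.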
